A study of Homo sapiens with 15 samples.

Results

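CtBP1 and CtBP2 are paralogous corepressors that bind NADH, and the genes described here are CTBP1 and CTBP2 with the genes of 8 proteins known to act with them. The partners are the histone deacetylases HDAC1 and HDAC2, the scaffold RCOR1 (CoREST), the histone demethylase KDM1A (LSD1), the histone methyltransferases EHMT1 (GLP) and EHMT2 (G9a), and the zinc finger proteins ZNF217 and WIZ. The members were taken by name, whatever their values: every probe whose gene name or current symbol was 1 of these 10 was kept. This gave 19 of the 41000 gene probes on the array and 10 of the 30991 genes they name. KDM1A was listed on the array under its older symbol AOF2.

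The cells were MDA-MB-231, a human breast cancer line without hormone receptors and with a mesenchymal appearance. They carried a stable short hairpin RNA against CtBP2 (shCtBP2), or were given HIPP or P4, small molecules labelled as CtBP2 inhibitors, for 24 h, with 5 biological replicates of each. HIPP is the oxime and P4 the hydrazone of phenylpyruvate, each as a sodium salt. Each of the 15 Agilent whole-genome arrays carried RNA of treated cells in Cy5 and control RNA in Cy3, with the dyes never exchanged, so a ratio against 0 can hold a dye effect of the probe. Untreated MDA-MB-231 cells are labelled as the control of all arrays, though the study's methods pair the hairpin with a scrambled control, and it is not known here whether arrays shared a control extract. All members were thus measured against the control on the same array, and in bulk RNA fewer cells of a type and less RNA per cell cannot be told apart.

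CtBP dimers are brought to promoters by DNA-binding proteins and in turn bring a corepressor complex that alters histones. In that complex HDAC1 and HDAC2 remove acetyl groups, KDM1A held by RCOR1 removes methyl groups from lysine 4 of histone H3, and EHMT1 and EHMT2, to which WIZ binds, add methyl groups to lysine 9. ZNF217 is a sequence-specific DNA-binding protein of the complex and is encoded in a region often amplified in breast cancer.

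Signals of the line markers VIM, CD44, AXL and CAV1 were well above background in both channels of all arrays, PGR and CDH1 in neither channel of any, and ESR1 on 2 to 5 arrays of a treatment. EPCAM and ESR1 were both fixed as markers of low level. EPCAM was above background on all 15 arrays, so EPCAM and, on part of the arrays, ESR1 went against that. Per array 64.9 to 81.0% of spots were above background in a channel, and no spot was saturated. Arrays of 1 treatment correlated over all genes with r from 0.300 to 0.569 for shCtBP2, 0.416 to 0.755 for HIPP and 0.0122 to 0.695 for P4. Precision is limited by the 5 arrays of each treatment. The arrays lay on 4 slides: P4 replicates 1 to 4 on slide 1, P4 replicate 5 with HIPP replicates 1 to 3 on slide 2, HIPP replicates 4 and 5 with shCtBP2 replicates 1 and 2 on slide 3, and shCtBP2 replicates 3 to 5 on slide 4. Slide 1 was scanned on day 1 and the other slides on day 2, so scan day was nearly confounded with P4, and P4 replicate 5 alone linked the days.

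The 60-base probes in the next lines are a few of those described later. The CTBP2 probe is that of the hairpin's transcript, and the CTBP1 probe was below 0 on all HIPP arrays. In the first pair the capitals mark the longest run of bases that the CTBP2 and CTBP1 probes shared, which was 6 bases. Over the 8 pairs of a CTBP2 and a CTBP1 probe the longest shared run was 5 to 8 bases. The RCOR1 and EHMT1 probes are shown because they behaved differently from the other probes of their genes.
CTBP2 probe A_24_P103922: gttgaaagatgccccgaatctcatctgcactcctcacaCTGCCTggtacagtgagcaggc
CTBP1 probe A_24_P208992: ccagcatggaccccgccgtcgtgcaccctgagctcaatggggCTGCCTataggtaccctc
RCOR1 probe A_24_P87257: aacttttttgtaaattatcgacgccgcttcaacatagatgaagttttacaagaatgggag
EHMT1 probe A_23_P20894: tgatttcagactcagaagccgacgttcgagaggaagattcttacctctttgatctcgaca

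In the array's annotation, on build hg17, the CTBP2 probe lies at chr10:126671814-126671873, and the other CTBP2 probe, A_23_P63897, at chr10:126667460-126667519. Both are annotated to CTBP2 but to different transcripts, and the hairpin was designed against the transcript of A_24_P103922. Whether that transcript also holds the sequence of A_23_P63897 is not known here. The printed CTBP1 probe spans chr4:1196034-1196582, a stretch of 549 bases for a 60-base probe, so its sequence joins separate parts of the genome. The printed RCOR1 probe lies at chr14:102258351-102258410 and the EHMT1 probe at chr9:137988363-137988422. The annotation gives no exon or UTR label for them.

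CTBP2, the target of the hairpin, was measured first. Its log2 ratio of treated to control, averaged over its 2 probes, was −0.36, −0.35, −0.59, −0.44 and −0.29 in shCtBP2 replicates 1 to 5. The mean was −0.41 ± 0.11 (SD, n = 5), or 75.4% of the control (adjusted p = 0.0595 by limma, adjusted by Benjamini-Hochberg over all genes tested, as are all adjusted p-values here). CTBP2 was thus lower on 5 of 5 arrays, but the difference missed the threshold of 0.05. Of the 27582 genes tested, 3186 (11.6%) had a lower mean ratio. It passed under 6 of the 18 alternative settings, among them the deposited value table (adjusted p = 0.0481) and a fit to the shCtBP2 arrays alone (adjusted p = 0.0153). It missed the threshold without any 1 of the 5 arrays (adjusted p = 0.102 to 0.158), and with slide as a block the CTBP2 ratio was −0.69 (adjusted p = 0.0694). No treatment lay on every slide, so each ratio given here with slide as a block is an estimate for the average of all slides. Such a ratio can lie outside the values of its own arrays, as the −0.69 did.

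The CTBP2 probe of the hairpin's transcript, A_24_P103922, passed the test on its own. Its log2 ratio in shCtBP2 cells was −0.22, −0.25, −0.58, −0.56 and −0.35, with a mean of −0.39 ± 0.17 (SD, n = 5, adjusted p = 0.0171). The brighter probe A_23_P63897 had a mean of −0.42 ± 0.14 (SD, n = 5, adjusted p = 0.152), which is close in size. The probes thus gave like mean ratios, and 1 of them was called.

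With the inhibitors CTBP2 was not lower. In HIPP replicates 1 to 5 the log2 ratio was 0.32, 0.62, 0.13, 1.05 and 0.75, with a mean of 0.57 ± 0.36 (SD, n = 5, adjusted p = 0.00256). CTBP2 rose on 5 of 5 HIPP arrays, to 149% of the control, and its HIPP and shCtBP2 values did not overlap. On mean signals without background or dye correction the HIPP ratio was −0.090 (adjusted p = 0.799), on a scale where the median of all genes was −0.39 against 0.081 on the corrected signals, so CTBP2 still lay above that median. The HIPP call was also lost under 2 more of the 18 alternatives, among them scan day as a block.

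With P4 the CTBP2 log2 ratio was 0.61, −0.16, −0.22, 0.32 and 0.29, a mean of 0.17 ± 0.35 (SD, n = 5, adjusted p = 0.344). The P4 arrays lay on both sides of 0. The probes parted there: A_23_P63897 had 1.18, −0.03, −0.10, 0.77 and 0.80 with a mean of 0.53 ± 0.56 (SD, n = 5, adjusted p = 0.0446), and A_24_P103922 a mean of −0.19 ± 0.15 (SD, n = 5, adjusted p = 0.145). After normexp background correction with loess dye normalization these became 0.49 (adjusted p = 0.0650) and −0.22 (adjusted p = 0.0454), so which of them was called depended on that choice.

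**Figure D1:**
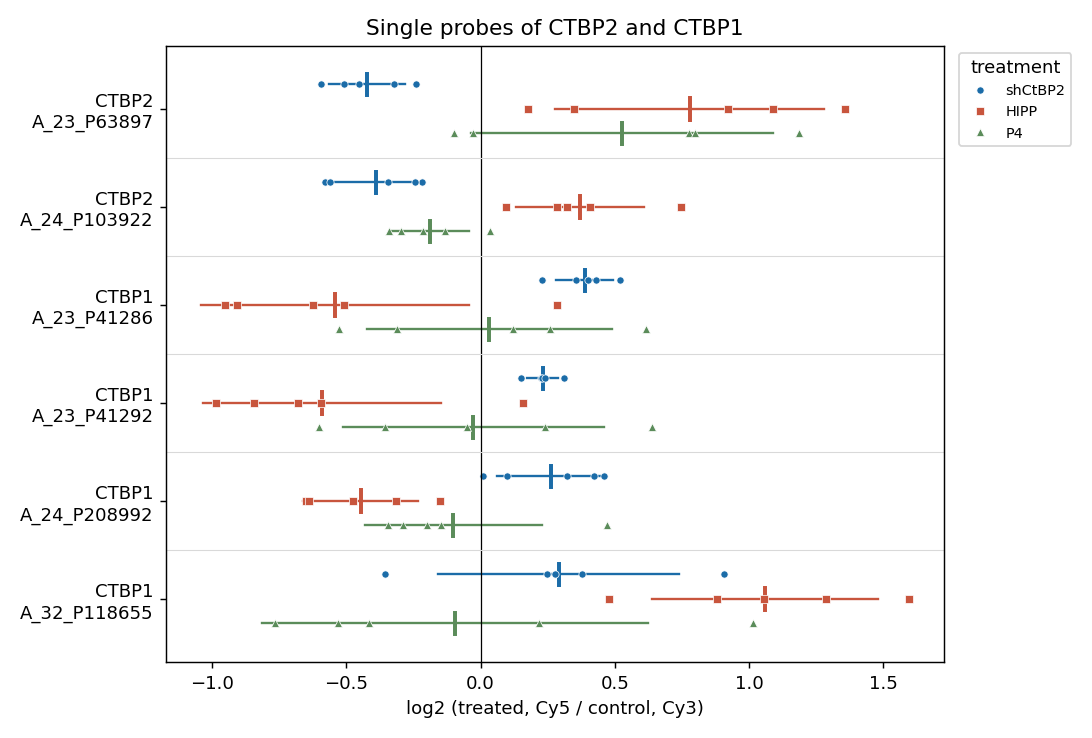
Log2 ratio of treated (Cy5) to control (Cy3) signal for each CTBP2 and CTBP1 probe, 1 point per array, with tall ticks for the mean and lines for the SD of 5 arrays. Both CTBP2 probes sat below 0 in shCtBP2 cells and above 0 with HIPP, and 3 of 4 CTBP1 probes had means below 0 with HIPP.

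CTBP1, the paralog not targeted by the hairpin, was higher on 5 of 5 shCtBP2 arrays without passing the test. Its log2 ratio was 0.30, 0.17, 0.49, 0.31 and 0.19, a mean of 0.29 ± 0.13 (SD, n = 5, adjusted p = 0.212). With HIPP the 4 probes averaged −0.13 ± 0.34 (SD, n = 5, adjusted p = 0.486) and with P4 −0.048 ± 0.45 (SD, n = 5, adjusted p = 0.821). The 5 arrays of each inhibitor lay on both sides of 0.

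The CTBP1 average with HIPP joined probes that went opposite ways. The probe A_23_P41286 (chr4:1195399-1195458) fell by 0.54 on the log2 scale (adjusted p = 0.0159) and A_23_P41292 (chr4:1195548-1195607) fell by 0.59 (adjusted p = 0.00816). The printed probe A_24_P208992 was at −0.48, −0.31, −0.65, −0.15 and −0.64, a mean of −0.45 ± 0.21 (SD, n = 5, adjusted p = 0.00614). The first pair was above 0 on HIPP replicate 4 and below 0 on the other 4 arrays, and the printed probe was below 0 on all 5. The fourth probe, A_32_P118655 (chr4:1218307-1218366), rose by 1.06 ± 0.42 (SD, n = 5, adjusted p = 0.0013). Its control signals on the HIPP arrays were only 29.7 to 51.1, against 12389 to 17760 for A_23_P41286, and after normexp its log2 ratio was 0.21 (adjusted p = 0.0370). In that setting the average of the 4 probes fell by 0.30 on the log2 scale and passed the test (adjusted p = 0.0220).

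Among all members, the log2 ratios of shCtBP2 cells passed the adjusted threshold for 3 of the 8 members tested, all lower (HDAC1, HDAC2 and EHMT1), where 13.5% of all genes tested passed and 6.95% were lower (6.59% higher). With HIPP 6 of 8 tested members passed, against 48.7% of all genes (24.9% higher and 23.9% lower): CTBP2 and WIZ higher, and HDAC1, HDAC2, KDM1A and EHMT2 lower. With P4 4 of 9 passed, against 31.9% of all genes (17.1% higher and 14.8% lower): WIZ higher, and HDAC1, KDM1A and EHMT2 lower. Members not tested in a treatment were removed by the filter on genes whose signals varied least over the treatment's 10 channels. None of the 10 members reached the study's fold thresholds of 1.5 for shCtBP2, 2.5 for HIPP and 1.8 for P4 together with the adjusted threshold, which 6.57%, 7.05% and 8.46% of all genes did. On uncorrected mean signals 1 member was called for shCtBP2, 6 for HIPP and 1 for P4. Those 6 were not the same set, as they held neither CTBP2 nor WIZ, the members called higher on the processed signals. The shares of all genes above are for the processed signals without a block. With scan day as a block limma called 0 for shCtBP2 (4 at an unadjusted p under 0.05), 3 for HIPP (HDAC1, HDAC2 and KDM1A) and 2 for P4 (EHMT2 and WIZ), while the shCtBP2 and HIPP arrays were all scanned on 1 day, day 2. The day effect in that fit was estimated from the P4 arrays alone, and it also moved the shCtBP2 and HIPP ratios.

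The tested members had a median log2 ratio of −0.35 for shCtBP2, −0.21 for HIPP and 0.040 for P4. Over all genes tested the medians were 0.038, 0.081 and 0.11. A sign shared by all arrays was seen in 6 of 8 tested members for shCtBP2 (36.1% of all genes), 5 of 8 for HIPP (47.5%) and 3 of 9 for P4 (32.2%). By single probes, 6 of 15 tested were called in shCtBP2 cells (14.2% of all probes), 14 of 17 with HIPP (51.4%) and 7 of 17 with P4 (33.2%). The shCtBP2 count of probes was 3, 2 and 2 without shCtBP2 replicates 2, 3 and 4, and the P4 count was 4 without P4 replicate 1.

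**Figure D2:**
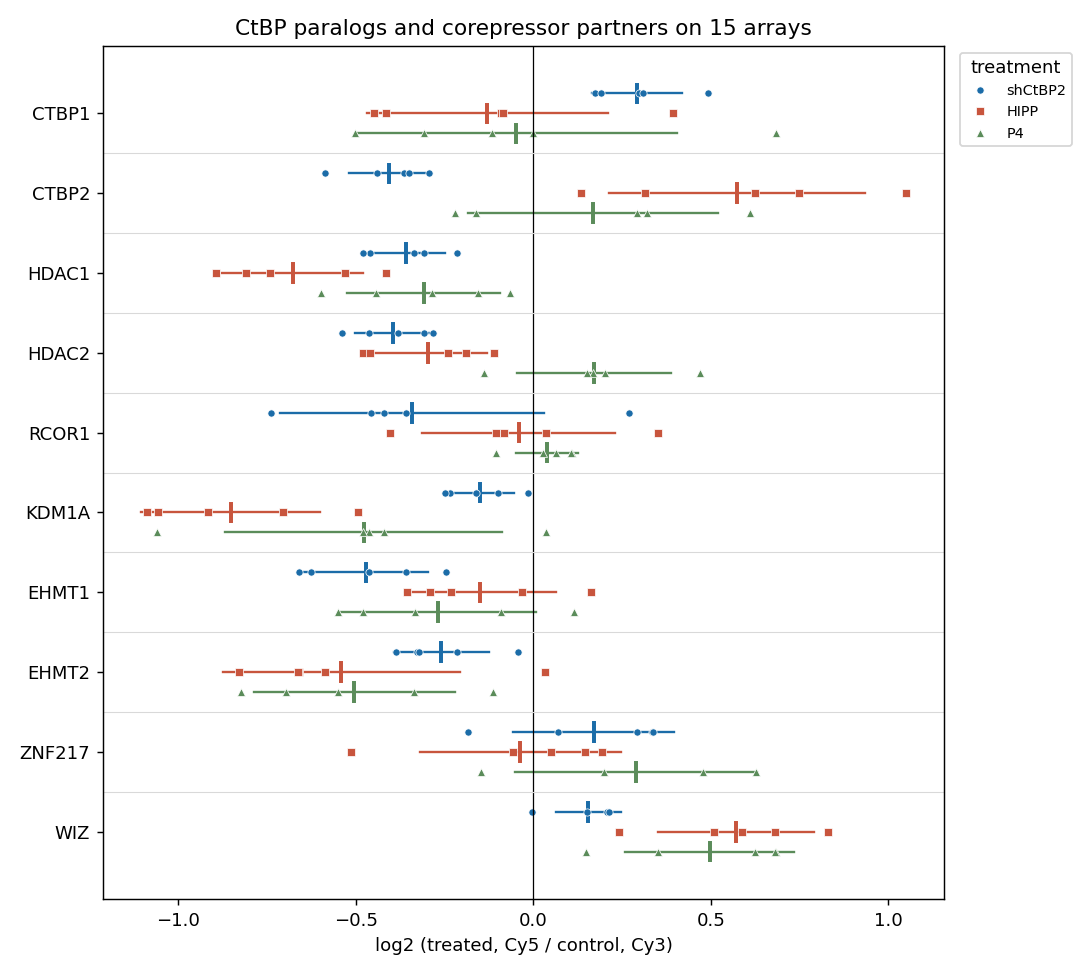
Log2 ratio of treated (Cy5) to control (Cy3) signal of the 10 genes, each point 1 array (probes of a gene averaged), with tall ticks for the mean and lines for the SD of 5 arrays (4 for ZNF217 with P4). HDAC1 lay below 0 on all 15 arrays, and CTBP2 lay below 0 on all shCtBP2 arrays and above 0 on all HIPP arrays.

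HDAC1, a catalytic deacetylase subunit of the complex, was the member lower on all 15 arrays. In HIPP replicates 1 to 5 its log2 ratio was −0.89, −0.81, −0.74, −0.42 and −0.53, a mean of −0.68 ± 0.20 (SD, n = 5, adjusted p = 3.46e-05), or 62.5% of the control. In shCtBP2 cells it was −0.46, −0.48, −0.31, −0.34 and −0.21, a mean of −0.36 ± 0.11 (SD, n = 5, adjusted p = 0.0210). The HIPP and shCtBP2 values overlapped at their edges. With P4 it was −0.44, −0.60, −0.28, −0.06 and −0.15, a mean of −0.31 ± 0.22 (SD, n = 5, adjusted p = 0.0224). HDAC1 has 1 probe (chr1:32468130-32468189) with 10 spots per array, 9 to 10 of them used, and the SD between those spots, 0.0127 to 0.0463 on the log2 scale, was smaller than that between arrays.

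The smaller HDAC1 changes depended on single arrays and on the treatment of slides. The shCtBP2 call was lost without replicate 1 (−0.33, adjusted p = 0.0759), 2 (−0.33, adjusted p = 0.0830) or 4 (−0.37, adjusted p = 0.0597). The P4 call was lost without replicate 1 (−0.28, adjusted p = 0.0576) or 2 (−0.24, adjusted p = 0.0852), and with slide as a block the P4 ratio was 0.014 (adjusted p = 0.963) and the shCtBP2 ratio −0.64 (adjusted p = 0.0257).

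HDAC2, the close paralog of HDAC1, fell in shCtBP2 cells and with HIPP and was not called with P4. Its log2 ratio in shCtBP2 cells was −0.54, −0.31, −0.46, −0.28 and −0.38, a mean of −0.39 ± 0.11 (SD, n = 5, adjusted p = 0.0103). With HIPP it was −0.48, −0.11, −0.46, −0.19 and −0.24, a mean of −0.30 ± 0.17 (SD, n = 5, adjusted p = 0.0143). HDAC2 was below 0 on all of these 10 arrays. With P4 it was −0.14, 0.17, 0.15, 0.20 and 0.47, a mean of 0.17 ± 0.22 (SD, n = 5, adjusted p = 0.156), so that 4 of 5 P4 arrays lay above 0 and none overlapped the shCtBP2 arrays. The 1 HDAC2 probe spans chr6:114368888-114369566.

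The HDAC2 spot of HIPP replicate 2 was dim in both channels, at 406 and 438, where the other HIPP arrays had 27137 to 36356 for treated and 37876 to 49414 for control RNA. Without that array the HIPP ratio was −0.34 (adjusted p = 0.0152). Without HIPP replicate 1 or 3 it was −0.25 (adjusted p = 0.0528) or −0.26 (adjusted p = 0.0583), and the call was lost.

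KDM1A, the lysine 4 demethylase, fell with HIPP and with P4. Its log2 ratio there was −0.71, −1.09, −0.49, −1.06 and −0.92, a mean of −0.85 ± 0.25 (SD, n = 5, adjusted p = 5.71e-05), or 55.4% of the control. With P4 it was −1.06, −0.42, 0.04, −0.46 and −0.48, a mean of −0.48 ± 0.39 (SD, n = 5, adjusted p = 0.0100). All HIPP arrays and 4 of 5 P4 arrays were below 0. In shCtBP2 cells KDM1A was at −0.24, −0.25, −0.10, −0.16 and −0.01, which did not overlap the HIPP values. Its mean of −0.15 ± 0.10 (SD, n = 5) was not tested because of the variation filter. The probe lies at chr1:23150801-23150860. After normexp the HIPP ratio was −0.55 and still passed (adjusted p = 0.000762). With slide as a block the P4 ratio was −0.55 and no longer passed (adjusted p = 0.174).

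RCOR1, which tethers KDM1A to nucleosomes, showed no called change as an average of its 3 probes. It averaged −0.34 ± 0.37 in shCtBP2 cells (SD, n = 5, adjusted p = 0.0854), −0.041 ± 0.27 under HIPP (SD, n = 5, adjusted p = 0.805) and 0.040 ± 0.088 under P4 (SD, n = 5, adjusted p = 0.825). With HIPP this average again joined opposite probes. The brightest, A_24_P330366 (chr14:102266235-102266294), was at −0.38, −0.68, −0.39, −0.82 and −0.47 and fell by 0.55 on average (adjusted p = 0.000116). The printed probe A_24_P87257 was at 0.55, 0.78, 0.95, 1.57 and 1.28 and rose by 1.02 (adjusted p = 0.000162). The values of these probes lay on opposite sides of 0 on all 5 HIPP arrays.

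The rising RCOR1 probe was dim, with control signals of 71.4 to 97.9 on the HIPP arrays against 3282 to 4927 for A_24_P330366. After normexp its HIPP ratio was 0.35 (adjusted p = 0.0040). With P4 it rose by 0.51 (adjusted p = 0.0335), and after normexp that was 0.20 (adjusted p = 0.0908). The remaining probe, A_23_P205247 (chr14:102263168-102263227), was well above background on 2 of 5 arrays in the shCtBP2 channel and on 3 of 5 in the control channel. Its ratio there was 0.53, −0.28, −1.44, −1.70 and −2.06, a mean of −0.99 (adjusted p = 0.0478). After normexp that mean was −0.11 (adjusted p = 0.352), so the RCOR1 average in shCtBP2 cells leaned on a probe near background.

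**Figure D3:**
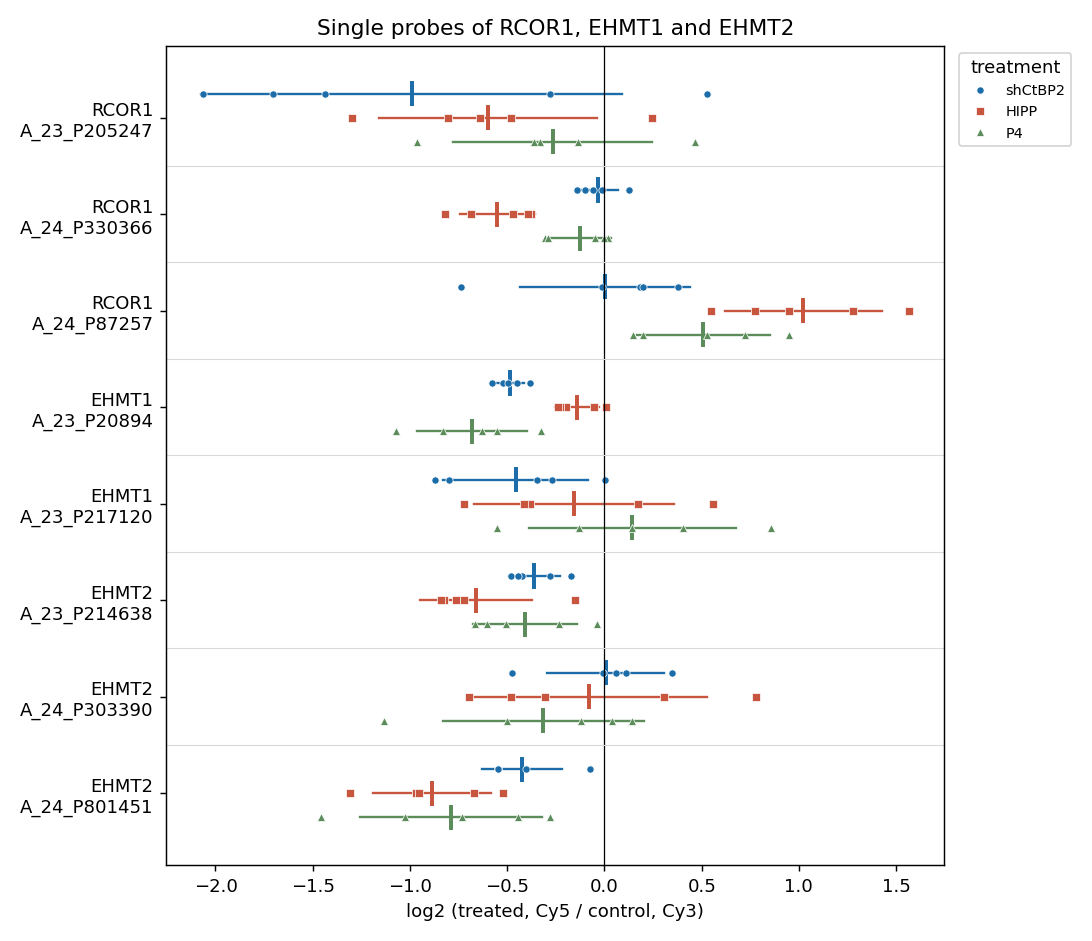
Log2 ratio of treated (Cy5) to control (Cy3) signal for each probe of RCOR1, EHMT1 and EHMT2, 1 point per array, with tall ticks for the mean and lines for the SD of 5 arrays. With HIPP, RCOR1 probes A_24_P330366 and A_24_P87257 sat on opposite sides of 0 on all 5 arrays, and EHMT1 probe A_23_P20894 sat below 0 on all shCtBP2 and P4 arrays.

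EHMT1, a lysine 9 methyltransferase, was lower on 5 of 5 shCtBP2 arrays. Its log2 ratio was −0.66, −0.63, −0.36, −0.25 and −0.46, a mean of −0.47 ± 0.18 (SD, n = 5, adjusted p = 0.0107), or 72.2% of the control. The average of its 2 probes was −0.15 ± 0.21 under HIPP and −0.27 ± 0.28 under P4 (SD over 5 arrays each), neither of them tested because of the variation filter. After normexp the shCtBP2 value was −0.27 and missed the threshold (adjusted p = 0.0732), and with slide as a block it was −0.73 (adjusted p = 0.0284).

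The printed EHMT1 probe varied little between the shCtBP2 arrays. It was at −0.52, −0.38, −0.45, −0.50 and −0.58 there, a mean of −0.48 ± 0.07 (SD, n = 5, adjusted p = 0.00417). With P4 the same probe was at −0.83, −0.55, −0.32, −0.63 and −1.07, a mean of −0.68 ± 0.28 (SD, n = 5, adjusted p = 0.000125). All 10 of those values were below 0, but the probe was dim. Its control signals were 66.3 to 90.3 on the shCtBP2 arrays, against 1015 to 1776 for A_23_P217120. On the P4 arrays they were 73.4 to 124, against 1333 to 2308. The brighter probe A_23_P217120 (chr9:138006148-138006207) had −0.46 ± 0.37 in shCtBP2 cells (SD, n = 5, adjusted p = 0.149) and 0.14 ± 0.53 with P4 (SD, n = 5, adjusted p = 0.600). The probes thus had like means in shCtBP2 cells and unlike means with P4.

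EHMT2, which forms a dimer with EHMT1, fell with both inhibitors. The average of its 3 probes with HIPP was −0.83, −0.66, −0.66, 0.03 and −0.59, a mean of −0.54 ± 0.33 (SD, n = 5, adjusted p = 0.00202). With P4 it was −0.70, −0.82, −0.34, −0.11 and −0.55, a mean of −0.50 ± 0.28 (SD, n = 5, adjusted p = 0.00636). HIPP replicate 4 alone lay above 0. In shCtBP2 cells the mean was −0.26 ± 0.13 (SD, n = 5, adjusted p = 0.181), with all 5 arrays below 0. The P4 call was lost with slide as a block (−0.27, adjusted p = 0.444), and after normexp the HIPP ratio was −0.30 (adjusted p = 0.0149).

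With HIPP 2 of the 3 EHMT2 probes were called, and with P4 1 was. A_24_P801451, to which the annotation gives no position, was at −0.88 ± 0.30 with HIPP (SD, n = 5, adjusted p = 0.000201) and −0.79 ± 0.47 with P4 (SD, n = 5, adjusted p = 0.0013). A_23_P214638 (chr6:31956453-31956512) was at −0.66 ± 0.29 with HIPP (SD, n = 5, adjusted p = 0.000218) and −0.36 ± 0.13 in shCtBP2 cells (SD, n = 5, adjusted p = 0.0494). Each was below 0 on all 5 arrays in these comparisons. With P4 A_23_P214638 was at −0.41 ± 0.27 (SD, n = 5) and not tested because of the variation filter. A_24_P303390 (chr6:31972132-31972191) was at −0.078 with HIPP (adjusted p = 0.773) and −0.31 with P4 (adjusted p = 0.251).

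WIZ, which binds the EHMT1 and EHMT2 dimer, was the member that rose with both inhibitors. Its log2 ratio with HIPP was 0.24, 0.68, 0.51, 0.83 and 0.59, a mean of 0.57 ± 0.22 (SD, n = 5, adjusted p = 0.00024). With P4 it was 0.62, 0.35, 0.15, 0.68 and 0.68, a mean of 0.50 ± 0.24 (SD, n = 5, adjusted p = 0.0017). All 10 arrays were above 0, at mean levels of 149% and 141% of the control. In shCtBP2 cells it was 0.00, 0.21, 0.21, 0.21 and 0.15 and was not tested because of the variation filter. On mean signals without correction the HIPP ratio of WIZ was −0.13 (adjusted p = 0.701), still above the median of all genes on that scale. With slide as a block the P4 ratio was 0.76 (adjusted p = 0.0369). Scan day as a block left WIZ called with P4 but not with HIPP. The probe lies at chr19:15393937-15393996.

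ZNF217 was not called in any treatment. It was at 0.17 ± 0.23 in shCtBP2 cells (SD, n = 5, adjusted p = 0.429) and 0.29 ± 0.34 with P4 (SD, n = 4, adjusted p = 0.134). P4 replicate 1 gave no value because its spot was marked as an outlier or non-uniform and left out. With HIPP it was −0.036 ± 0.28 (SD, n = 5) and not tested because of the variation filter. The arrays of each treatment lay on both sides of 0. The probe lies at chr20:51617485-51617544.

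The inhibitors were then set against the hairpin by the difference of mean log2 ratios, in which a fixed dye effect of a probe cancels. With HIPP minus shCtBP2, 1 of 6 tested members passed, where 26.4% of all genes did. It was CTBP2, with a difference of 0.98 (95% confidence interval 0.575 to 1.39, adjusted p = 0.00134). Within slide 3, which held 2 arrays of each, the difference was 1.26. The estimate with slide as a block (adjusted p = 0.00933) is that same difference, since slide 3 alone held both treatments. On uncorrected mean signals it was 0.26 (adjusted p = 0.811). Both CTBP2 probes passed (28.8% of all probes did), A_23_P63897 with 1.20 (adjusted p = 0.00333) and A_24_P103922 with 0.76 (adjusted p = 0.000803).

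For CTBP1 the HIPP minus shCtBP2 difference of the gene average was −0.42 (95% confidence interval −0.869 to 0.0249, adjusted p = 0.160). Its 3 brighter probes each passed, with −0.93 (adjusted p = 0.00933), −0.82 (adjusted p = 0.0163) and −0.71 (adjusted p = 0.00557). The dim probe A_32_P118655 went the other way, at 0.77, and did not pass (adjusted p = 0.0912). Within slide 3 the gene average differed by −0.082. After normexp it was −0.50 and passed (adjusted p = 0.0185). For HDAC1 the difference was −0.32 (95% confidence interval −0.605 to −0.0326, adjusted p = 0.0961), and within slide 3 it was −0.0036. It passed under 4 of 21 alternatives, among them normexp (−0.32, adjusted p = 0.0476) and median centring (−0.35, adjusted p = 0.0498). HDAC2 differed by 0.098 (95% confidence interval −0.177 to 0.373, adjusted p = 0.613). The paralogs CTBP2 and CTBP1 thus had differences of opposite sign, of which only that of CTBP2 passed at the gene level on the processed signals.

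KDM1A, WIZ, EHMT1 and ZNF217 were left out of this comparison by the variation filter. The HIPP minus shCtBP2 differences of KDM1A and WIZ were −0.70 and 0.42, with −0.75 and 0.61 within slide 3. Without the filter they passed, at adjusted p = 0.00866 for KDM1A and 0.0392 for WIZ. EHMT1 differed by 0.32, with 0.71 within slide 3, and ZNF217 by −0.21, with 0.15 within slide 3. Without the filter neither passed, at adjusted p = 0.144 for EHMT1 and 0.438 for ZNF217. EHMT2 differed by −0.28 (adjusted p = 0.262) and RCOR1 by 0.30 (adjusted p = 0.240), and neither passed, while the printed RCOR1 probe did (1.02, adjusted p = 0.0052). The count of members called was 2 without shCtBP2 replicate 1, with RCOR1 added, and 3 without HIPP replicate 4, with HDAC1 and EHMT2 added.

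With P4 minus shCtBP2, 1 of 7 tested members passed, where 12.1% of all genes did. It was HDAC2, with a difference of 0.57 (95% confidence interval 0.291 to 0.841, adjusted p = 0.0102). CTBP2 differed by about as much, 0.57 (95% confidence interval 0.168 to 0.981, adjusted p = 0.0638), and missed the threshold, but passed under 5 of 21 alternatives. Of its probes A_23_P63897 passed with 0.95 (adjusted p = 0.0301, where 12.9% of all probes did), and A_24_P103922 was at 0.20 (adjusted p = 0.40). No slide held both P4 and shCtBP2 arrays. With slide as a block, which joined them through the HIPP arrays, HDAC2 differed by 1.03 (adjusted p = 0.0764). With scan day as a block, which rests on P4 replicate 5, it differed by 0.87 (adjusted p = 0.0689). The other 5 tested members had differences from −0.34 (CTBP1) to 0.38 (RCOR1). KDM1A (−0.33), EHMT1 (0.20) and WIZ (0.34) were left out by the variation filter, and none of them passed without it, at adjusted p = 0.265, 0.441 and 0.129. The count of members called was 2 without shCtBP2 replicate 1, with RCOR1 added, and without P4 replicate 2 or 3, with CTBP2 added.

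HIPP and P4 were given at different doses in the study's methods, so their values are set side by side without a test. The mean log2 ratios with HIPP and P4 were 0.57 and 0.17 for CTBP2, −0.68 and −0.31 for HDAC1, and −0.30 and 0.17 for HDAC2. They were −0.85 and −0.48 for KDM1A, −0.54 and −0.50 for EHMT2, and 0.57 and 0.50 for WIZ. Each pair was measured against untreated cells per the labels.

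**Figure D4:**
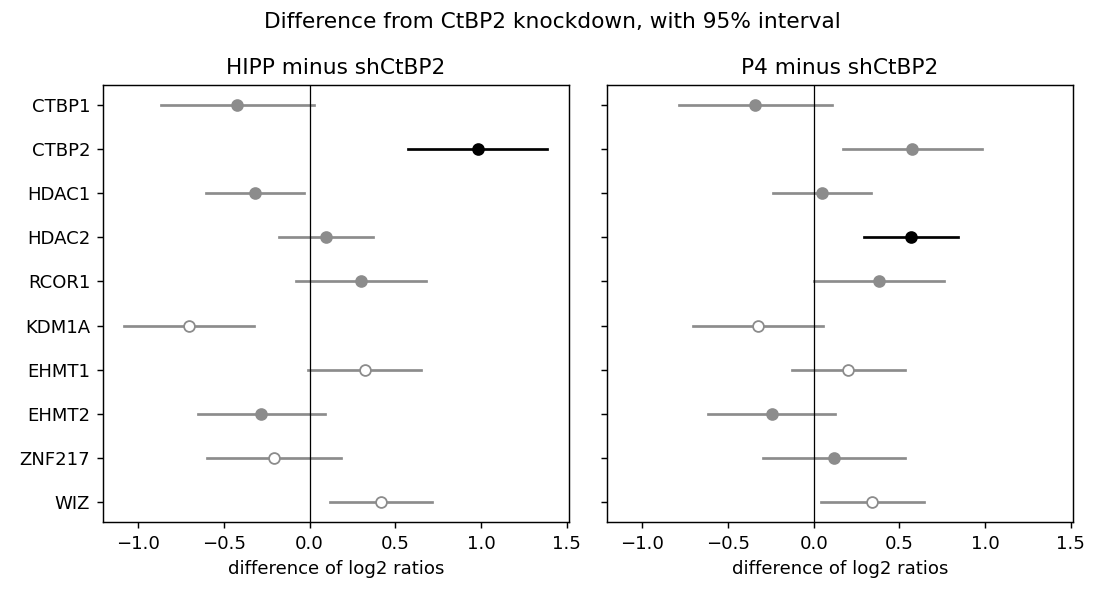
Difference of mean log2 ratios (inhibitor minus shCtBP2) for the 10 genes, with lines for the 95% confidence interval. Black filled points passed the adjusted threshold, grey points were tested and did not pass, and open points were not tested because of the variation filter. CTBP2 passed for HIPP and HDAC2 for P4.

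Other genes of the CtBP pathway were taken from lists by role. Their counts stand against the 13.5%, 48.7% and 31.9% of all genes tested that passed for shCtBP2, HIPP and P4, and values after normexp stand beside the genes described where they end a call or move the ratio by over 1.5 times. Of 8 further subunits of the LSD1-CoREST complex, 1 of 6 tested passed in shCtBP2 cells, 5 of 6 with HIPP (2 higher and 3 lower) and 1 of 7 with P4 (3 after normexp). In shCtBP2 cells it was ZMYM2, a zinc finger subunit, which rose by 0.67 ± 0.23 (SD, n = 5, adjusted p = 0.0132). Its relative ZMYM3 fell under HIPP, at −1.25 ± 0.25 (SD, n = 5, adjusted p = 7.42e-08; −0.57 after normexp), and under P4, at −0.64 ± 0.13 (SD, n = 5, adjusted p = 0.000146). With HIPP GSE1 was at −0.92 (adjusted p = 0.000590), but after normexp at −0.12 (adjusted p = 0.299). RCOR2, the paralog of RCOR1, rose with HIPP by 0.56 (adjusted p = 0.00307). The median log2 ratios of this list were −0.060, −0.38 and −0.014 for shCtBP2, HIPP and P4.

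Of 7 other chromatin proteins known to bind CtBP, limma called 0 of 5 tested in shCtBP2 cells, where 3 had an unadjusted p under 0.05, 3 of 6 with HIPP and 4 of 6 with P4. CDYL, a chromodomain corepressor, fell with HIPP at −1.29 ± 0.54 (SD, n = 5, adjusted p = 4.49e-05) and with P4 at −0.98 ± 0.50 (SD, n = 5, adjusted p = 0.00122). The deacetylase HDAC3 fell as well, by 0.66 with HIPP (adjusted p = 0.00313) and by 0.60 with P4 (adjusted p = 0.00983). HDAC5, a class IIa deacetylase, rose by 1.16 ± 0.21 with HIPP (SD, n = 5, adjusted p = 2.33e-07), which after normexp was 0.61. HDAC4, of the same class, rose by 0.46 ± 0.08 with P4 (SD, n = 5, adjusted p = 0.000763). The list's medians were −0.24, −0.11 and 0.0040 for shCtBP2, HIPP and P4.

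Of 23 DNA-binding proteins and coregulators that recruit CtBP, 4 of 21 tested passed in shCtBP2 cells (2 higher and 2 lower, and 2 in all after normexp), 9 of 21 with HIPP (5 and 4) and 9 of 22 with P4 (6 and 3). ZEB1, the repressor of epithelial genes, was at 1.05 ± 0.33 with HIPP (SD, n = 5, adjusted p = 1.24e-05) and −0.71 ± 0.29 with P4 (SD, n = 5, adjusted p = 0.00106). It rose with HIPP and fell with P4, on 5 of 5 arrays each, and after normexp was at 0.56 and −0.36. ZFPM1, a cofactor of GATA factors, rose with both, by 0.82 with HIPP (adjusted p = 0.00225) and 0.59 with P4 (adjusted p = 0.0273). TGIF1 rose with P4 by 0.90 (adjusted p = 0.00334). RREB1 was at 0.86 with HIPP (adjusted p = 0.00202), but at 0.10 after normexp (adjusted p = 0.0717). In shCtBP2 cells ZNF516, above background on 3 of 5 arrays in each channel, was at 0.72 ± 0.46 (SD, n = 5, adjusted p = 0.0370), but at 0.072 after normexp (adjusted p = 0.498). The other 3 called there were KLF8 higher and KLF3 and RAI2 lower. KLF3 was at −0.43 (adjusted p = 0.0173), but at −0.058 after normexp (adjusted p = 0.509). RAI2, above background on 2 of 5 arrays in the treated channel, went from −1.62 to −0.25 after normexp, and KLF8, above background on 1 of 5 arrays in the control channel, from 3.36 to 0.90. The list's medians were −0.056, 0.14 and 0.22.

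Of 11 genes described as repressed through CtBP, 3 of 8 tested passed in shCtBP2 cells (1 after normexp), 7 of 10 with HIPP (5 higher and 2 lower, and 4 in all after normexp) and 6 of 9 with P4 (4 and 2). In shCtBP2 cells PMAIP1 (NOXA), a death-promoting BCL2 relative, rose by 0.48 ± 0.22 (SD, n = 5, adjusted p = 0.0456). SIRT4, a mitochondrial sirtuin, was at 0.61 ± 0.15 (SD, n = 5, adjusted p = 0.0181), but at 0.20 after normexp (adjusted p = 0.0583). BIK, of the same family as PMAIP1, was at −0.30 in shCtBP2 cells (adjusted p = 0.0240), at 0.36 with HIPP (adjusted p = 0.00199) and at 0.26 with P4 (adjusted p = 0.0281). After normexp none of these BIK ratios passed, at −0.085 (adjusted p = 0.305), 0.11 (adjusted p = 0.0755) and 0.087 (adjusted p = 0.175). The cell cycle inhibitor CDKN1A (p21) rose by 1.32 ± 0.22 with HIPP (SD, n = 5, adjusted p = 1.97e-06) and 1.06 ± 0.44 with P4 (SD, n = 5, adjusted p = 7.16e-05), which after normexp were 0.75 and 0.68. CDKN2A rose with HIPP by 0.84 (adjusted p = 1.37e-05). PERP, a p53 target, fell with HIPP by 0.48 (adjusted p = 0.000540) and with P4 by 0.42 (adjusted p = 0.00327), as did BAX with P4 by 0.41 (adjusted p = 0.0152). The list's medians were −0.011, 0.38 and 0.26.

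**Figure D5:**
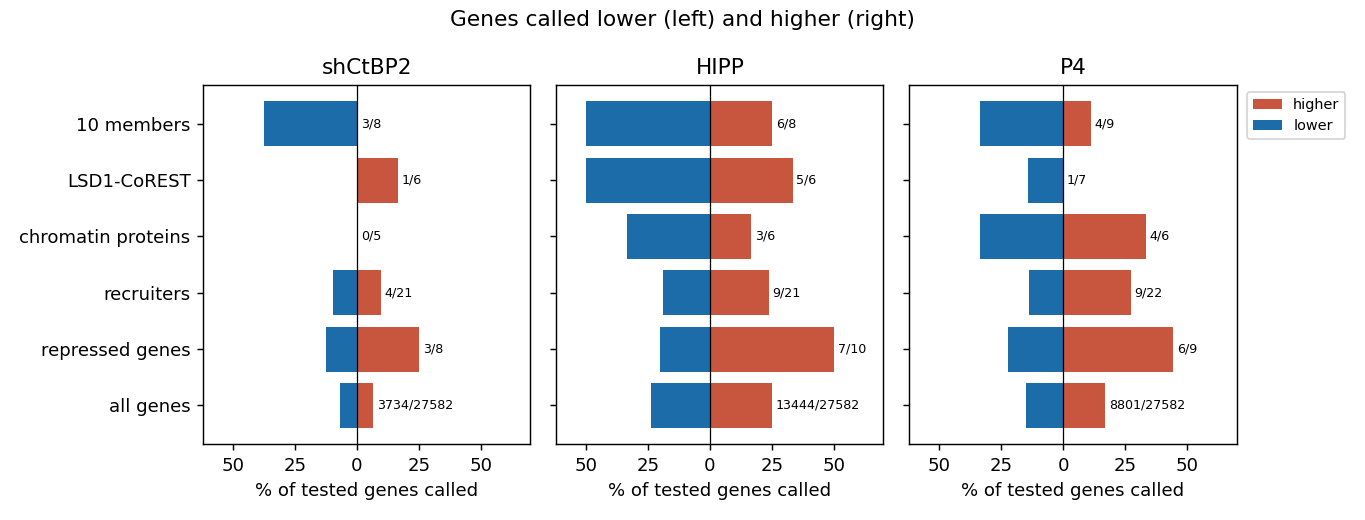
Percent of tested genes called lower (blue, left) and higher (red, right) at adjusted p under 0.05 in each treatment, for the 10 members, the 4 lists and all genes tested, with the number called over the number tested beside each bar. Among members 3 of 8 were called in shCtBP2 cells, all lower, against 3734 of 27582 over all genes.

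The pattern of CTBP2 over the 15 arrays was set against 16067 genes measured above background in both channels of every array, by root-mean-square difference of log2 ratios. The nearest was ZFHX3, a zinc finger transcription factor, at 0.0916, with mean log2 ratios of −0.45, 0.59 and 0.16 for shCtBP2, HIPP and P4. AFTPH (0.148), the chromatin remodelling ATPase EP400 (0.169), the SUMO ligase PIAS4 (0.169) and the nuclear pore protein NUP214 (0.172) followed. CTBP1, RCOR1 and ZNF217 were not among the genes compared, and the nearest of the remaining members was WIZ, at rank 1825 with 0.416. The arrays share slides and possibly control RNA, so this likeness is a description with no test.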

How the data were processed

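Total RNA was amplified and labelled with Cy5 (treated) or Cy3 (control) and hybridized to Agilent whole human genome arrays. The authors extracted the scans with Agilent Feature Extraction 9.5.3.1 and deposited, per spot, signal intensities corrected for background and dye on a linear scale, written with a decimal comma, and log10 ratios of Cy5 over Cy3. The deposited log10 value table served as an alternative.

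Spots marked non-uniform or as outliers by the software were dropped. Log2 of Cy5 over Cy3 processed signal was averaged over spots of a probe and probes of a gene. A gene needed values on 3 of 5 arrays, a rule of this re-analysis. After the study's methods, the 11% of genes that varied least in a treatment (interquartile range of the 10 log2 channel signals) were dropped. Treatment means were tested against 0, and their differences, with limma 3.58.1 (R 4.3.3), all 15 arrays in 1 fit, with Benjamini-Hochberg adjustment over all genes or probes tested. The fit was tested on simulated data. Older symbols were matched through accessions and synonyms.

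Alternatives were normexp (offset 50) with loess, uncorrected mean signals, median centring, no variation filter, dim spots left out, slide, scan day (added after seeing the data) or replicate number as a block, own arrays only, the brightest probe, each array left out and the methods' Student's test on channel signals. The members, lists and tests were chosen with earlier results of these data known. Named genes are all members and their probes, up to 3 called genes per list and treatment by size, with 1 sign on all arrays and signal above background in both channels of at least 3, and the 5 genes nearest to CTBP2. KLF8, KLF3 and RAI2 were named to account for a count.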

Additional observations from a re-analysis of the deposited data

Results flagged for a closer look

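Of the members' values 2 stood apart from the other arrays of their treatment by Dixon's test, of 30 groups of 4 or 5 arrays tested, where chance gives about 1 in 20. EHMT2 on HIPP replicate 4 was at 0.034, while the nearest other HIPP array was at −0.59. WIZ on shCtBP2 replicate 1 was at −0.0037, while the nearest other array was at 0.15.

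The difference between treatments passed the test for 2 members. CTBP2 differed by 0.98 on the log2 scale between HIPP and shCtBP2 cells, with means of 0.57 and −0.41, higher on 5 of 5 and lower on 5 of 5 arrays (adjusted p by limma = 0.00134). HDAC2 differed by 0.57 between P4 and shCtBP2 cells, with means of 0.17 and −0.39, above 0 on 4 of 5 P4 arrays and below 0 on 5 of 5 shCtBP2 arrays (adjusted p by limma = 0.0102). P4 and shCtBP2 arrays shared no slide, and 4 of 5 P4 arrays were scanned on another day than all shCtBP2 arrays, so neither slide nor scan day can be told apart from treatment in most of these arrays.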

How the results depend on the processing

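On uncorrected mean signals 1 member was called for shCtBP2, 1 for P4, and limma called 0 for HIPP minus shCtBP2 (3 at an unadjusted p under 0.05) and 0 for P4 minus shCtBP2 (0 unadjusted), with 1 and 4 probes for shCtBP2 and P4. Ratios turned there for CTBP2 (−0.090) and WIZ (−0.13) with HIPP and RCOR1 (−0.16) with P4, and differences from shCtBP2 for HDAC2 (−0.65), RCOR1 (−0.31), EHMT1 (−0.22) and WIZ (−0.28) with HIPP and ZNF217 (−0.076) with P4. After normexp with loess 3 members were called for HIPP minus shCtBP2, and RCOR1 turned to −0.0018. The lists then had 3 LSD1-CoREST subunits called with P4, 2 recruiters and 1 repressed gene in shCtBP2 cells, and 4 repressed genes with HIPP.

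With slide as a block 1 member was called for P4 and limma called 0 for P4 minus shCtBP2 (4 at an unadjusted p under 0.05), with 3 probes each for shCtBP2 and P4. Estimated for the average of all slides, ratios turned for ZNF217 (−0.19) and WIZ (−0.048) in shCtBP2 cells and CTBP1 (0.24) and HDAC1 (0.014) with P4. Differences turned for EHMT2 (0.080) and ZNF217 (0.15) with HIPP and CTBP1 (0.24) and EHMT2 (0.25) with P4. The brightest probe gave 3 and 2 members called for HIPP and P4 minus shCtBP2. It turned CTBP1 (0.032), RCOR1 (−0.12) and EHMT1 (0.14) with P4, and the RCOR1 differences with HIPP (−0.51) and P4 (−0.089). Without dim spots RCOR1 was 0.087 with HIPP, and 2 members were called for P4 minus shCtBP2. For HIPP minus shCtBP2 median centring called 2 and no variation filter 3. With own arrays only, 5 members were called for shCtBP2 and 1 for P4, with 3 probes for P4. The methods' Student's test, adjusted, called 0 members for P4 (3 unadjusted).

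Scan day as a block, chosen after seeing the data, called 3 members and 7 probes for HIPP, 2 members and 3 probes for P4, and limma 0 members (4 at an unadjusted p under 0.05) and 0 probes (3 unadjusted) for shCtBP2 and 0 members for P4 minus shCtBP2 (1 unadjusted). ZNF217 turned to −0.055 in shCtBP2 cells.

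CTBP2 in shCtBP2 cells passed the threshold with the deposited table (−0.41), without dim spots (−0.41), with slide as a random block (−0.39), on own arrays (−0.41) and by the methods' Student's test (−0.41). The random block used a consensus correlation within slides that was negative, at −0.058. For CTBP2 in shCtBP2 cells the leave-out ratios follow. Without any 1 array it ranged from −0.43 to −0.36. Leaving out 1 array gave 1 to 3 members called for HIPP minus shCtBP2, 1 to 2 for P4 minus shCtBP2, 2 to 4 probes for shCtBP2 and 4 to 7 for P4. It gave ratios from −0.093 to 0.083 for ZNF217 and −0.14 to 0.049 for RCOR1 with HIPP and −0.23 to 0.065 for CTBP1 with P4, and a difference from −0.0100 to 0.12 for HDAC1 with P4.

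Replicate numbers were not used to pair arrays, since the labels tie them to nothing shared and not every same-numbered pair correlated over 0.1. Of 15 such pairs 13 did (r from −0.465 to 0.820, median 0.294), against 18 of 60 pairs of other numbers (median −0.116), a hint from the data of some pairing, and 3 of 15 arrays correlated best with their own number in both other treatments. With the replicate block CTBP2 was −0.41 (limma adjusted p = 0.0348), and 2 members each were called for HIPP and P4 minus shCtBP2. The causes of these changes were not tested.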
